A study of Danio rerio with 3 samples.

Results

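Cytosolic ribosomal protein genes were followed in whole zebrafish embryos after an electrophile had been released beside Keap1, the sensor protein that holds the antioxidant regulator Nrf2 in check. Members were all genes whose name in the deposited tables begins with *rpl*, *rps* or *rplp* and a number, or with *rpsa*, in either case, without the S6 kinases (*rps6k*). The rule used names only and no measured value. It found 86 of 31950 genes, 48 named for the large and 38 for the small subunit. The low filter, 10 counts on average per library, left 85 of them among 18563 tested genes, and the remaining gene had no count in any library.

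The data were 3 RNA-seq libraries, each from *Tg(lyz:TagRFP)* embryos, a line whose neutrophils carry a red fluorescent protein. Embryos of every library, the non-treated library included, had been injected at the 1 to 4-cell stage with mRNA for Halo-TEV-Keap1, and the source label numbers the Keap protein differently in each library, which could not be resolved from the labels. In Z-REX, a photocaged precursor bound to the Halo domain is cleaved by light, so that the electrophile is set free next to the fused Keap1. HNE (4-hydroxynonenal) and HDE (4-hydroxydodecenal), which has the longer carbon chain, were the 2 electrophiles. Embryos of the Z-REX libraries were kept with precursor for 30 h in the dark and rinsed. They were then exposed to 365 nm light at 0.5 mW/cm2 for 3 min and lysed 1.5 h later. The precursor dose of 1 µM is given for HNE and not for HDE, so a match of the doses could not be checked. How many embryos went into each library is not given in the sources used here. The study's other experiments list light alone as a control apart from non-treated embryos, while the labels give the non-treated library the same protocol text as the others.

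There was 1 library per condition, so no difference below has a replicate check. The exact binomial test used here compares the reads of 2 libraries and not the conditions, and its intervals cover counting error only. The library totals lay between 15084294 and 17996111 counts. Markers of muscle, epidermis, nerve cells, red blood cells, hatching gland, lens and leukocytes were all detected, whereas the liver genes *ttr* and *fabp10a* had 2 counts or fewer in each library. Some of these lists differed between libraries. The 5 leukocyte markers summed to 102 FPKM in the non-treated, 49.4 in the HNE and 87.9 in the HDE library. The 4 muscle markers summed to 8567, 7676 and 6730 FPKM and the 4 red blood cell genes found to 2235, 1299 and 1416 FPKM, in the same order. The 4 liver and yolk genes summed to 3894, 3710 and 3144 FPKM, and only *apoa1b* and *tfa* among them passed the low filter. Their part in the values of the ribosomal protein genes was not tested, and in RNA from whole embryos fewer cells of a type and less RNA per cell cannot be told apart.

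As background, the ribosome is built of a small subunit, which reads the mRNA, and a large subunit, which joins the amino acids, and most of their proteins are present in a single copy per ribosome. Messenger RNAs of ribosomal proteins are among the most abundant in growing cells. In vertebrates they begin with a run of pyrimidines, the 5′ terminal oligopyrimidine (TOP) motif, through which their translation is held back when mTOR signaling is low. Loss of several ribosomal proteins in zebrafish activates p53 and impairs blood formation, and in humans heterozygous loss of several of them causes Diamond-Blackfan anemia.

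Ribosomal protein genes took a large share of each library. In the non-treated library they held 9.44% of all counts (Wilson 95% interval 9.42 to 9.45), against 9.99% in the HNE library (9.98 to 10.01) and 9.50% in the HDE library (9.49 to 9.52). The share was thus highest after HNE and differed by less than 1 percentage point among the 3 libraries. By FPKM, which corrects for length, the shares were 24.1%, 25.7% and 24.8% of the summed values. In the non-treated library, 58 of the 100 genes with the highest FPKM were members.

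The members split into an abundant block and a few genes that were hardly expressed. The 81 members that averaged 1000 counts or more had a median FPKM of 2543 in the non-treated, 2695 in the HNE and 2474 in the HDE library. The highest FPKM in the non-treated library belonged to *rplp1*, an acidic stalk protein, with 5353 FPKM against 4826 in the HNE and 4493 in the HDE library. It was followed by *rps12* (5079, 5395 and 4894), *rps20* (4734, 5238 and 4816), *rps8a* (4494, 4614 and 4130) and *rplp2l* (4207, 4443 and 4255). The lowest of the 81 were *rpl7l1*, a relative of *rpl7*, with 83.8, 86.7 and 72.5 FPKM, and *rpl22l1*, the paralog of *rpl22*, with 537, 635 and 502 FPKM. Large and small subunit members had like levels in the non-treated library, with medians of 2535 FPKM over 47 genes and 2546 FPKM over 34 genes. The small subunit median was the higher one in the other libraries, at 2874 against 2592 FPKM in the HNE and 2662 against 2386 FPKM in the HDE library.

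**Figure D1:**
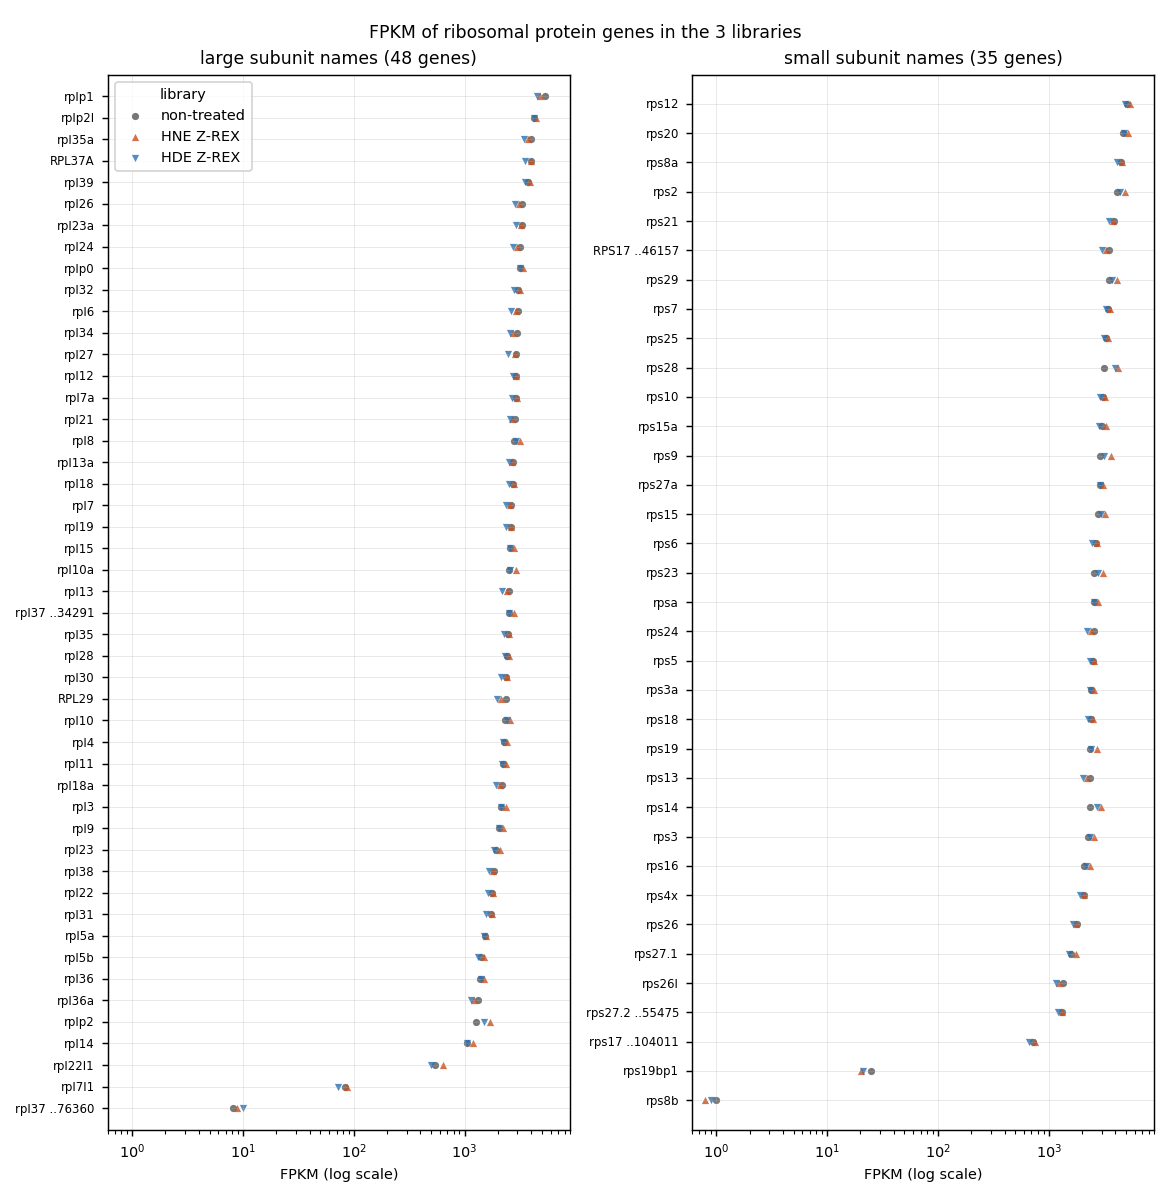
FPKM of 83 of the 85 tested ribosomal protein genes in the non-treated (circles), HNE Z-REX (triangles up) and HDE Z-REX (triangles down) libraries, on a log axis, with large subunit names left and small subunit names right; digits after 2 points are the end of the identifier of a repeated name. All but a handful of genes lie together at high FPKM with the 3 libraries nearly overlapping, and 3 genes with under 1000 counts lie far below.

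A few other tested members were low in every library. Among them were *rps19bp1*, which encodes a binding partner of Rps19 and no ribosomal protein (451, 362 and 333 counts in the non-treated, HNE and HDE library), *rps8b* (19, 15 and 15) and a second *rpl37* entry with the identifier ENSDARG00000076360 (100, 109 and 108). The name table at hand gives that second *rpl37* entry another name, COA1. The gene without counts was the *rps27.2* entry ENSDARG00000100513, for which 0 counts allow up to 3 counts per library. These entries add almost nothing to the summed counts of the family.

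The first comparison asked whether the family differed after release of HNE. Ribosomal protein genes lay slightly higher in the HNE than in the non-treated library, with a median log2 ratio of 0.06 over 85 genes (range -0.14 to 0.40 over the 81 abundant genes) beside 0.00 for all genes tested. Their summed, scaled counts were 1.05 times those of the non-treated library (interval 1.05 to 1.05). By the adjusted p alone, at any fold, 48 members were higher and 15 lower, where 7.21% of all tested genes were higher and 7.50% lower. Because abundant genes pass such a test at small differences, the share among the 2779 other genes that averaged 1000 counts or more was also taken. Of these, 17.1% were higher and 20.7% lower, with a median log2 ratio of -0.01. The cut is a lower limit only and was not matched to the 81 abundant members, whose median was 18254 counts in the non-treated library. Members can thus pass at smaller differences than many of these genes, here and in the comparisons below.

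Few of these differences were of any size. At 1.2-fold and an adjusted p under 0.05, 4 members were higher and 1 was lower, where 4.37% and 4.40% of all tested genes were. At 1.5-fold in either direction 1 member was called, against 3.37% of all tested genes. The higher members included *rplp2*, *rps14* and *rps23*, and the lower was *rps19bp1*. With 1 library per condition there was no spread between replicates to set against these sizes. When edgeR's exact test instead assumed a biological coefficient of variation of 0.1, nearly all members that had passed the adjusted p no longer did.

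The highest of the abundant genes was *rplp2*, which encodes a stalk protein that helps recruit elongation factors. It had 4676 scaled counts in the non-treated, 6150 in the HNE and 5425 in the HDE library. The log2 ratio of HNE to non-treated was 0.40 (interval 0.34 to 0.45, adjusted p = 3.84e-45 in the exact binomial test). Next came *rps14*, which lines the path of the mRNA out of the small subunit, with 18126, 22807 and 20923 scaled counts and a log2 ratio of 0.33 (0.30 to 0.36, exact binomial adjusted p = 1.42e-120). The decoding-site protein gene *rps23* had 16902, 20409 and 18391 scaled counts and a log2 ratio of 0.27 (0.24 to 0.30). In all 3 genes the non-treated library was lowest and the HDE library lay between the others. The same order held for *rps29*, with 8700, 10400 and 9335 scaled counts, and for *rps2*, the most abundant member by counts, with 51226, 60731 and 54154.

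At the other end stood genes of both subunits. RPL29 had 6401 scaled counts in the non-treated, 5800 in the HNE and 5374 in the HDE library, a log2 ratio of HNE to non-treated of -0.14 (-0.19 to -0.09, exact binomial adjusted p = 9.56e-07). The large subunit gene *rpl34* had 12160, 11128 and 10396 scaled counts and a log2 ratio of -0.13. The values of *rpl26* were 22363, 20884 and 19229, and those of *rps26l* 10775, 10014 and 9331, with log2 ratios of -0.10 and -0.11. In these genes the non-treated library was highest and the HDE library lowest.

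**Figure D2:**
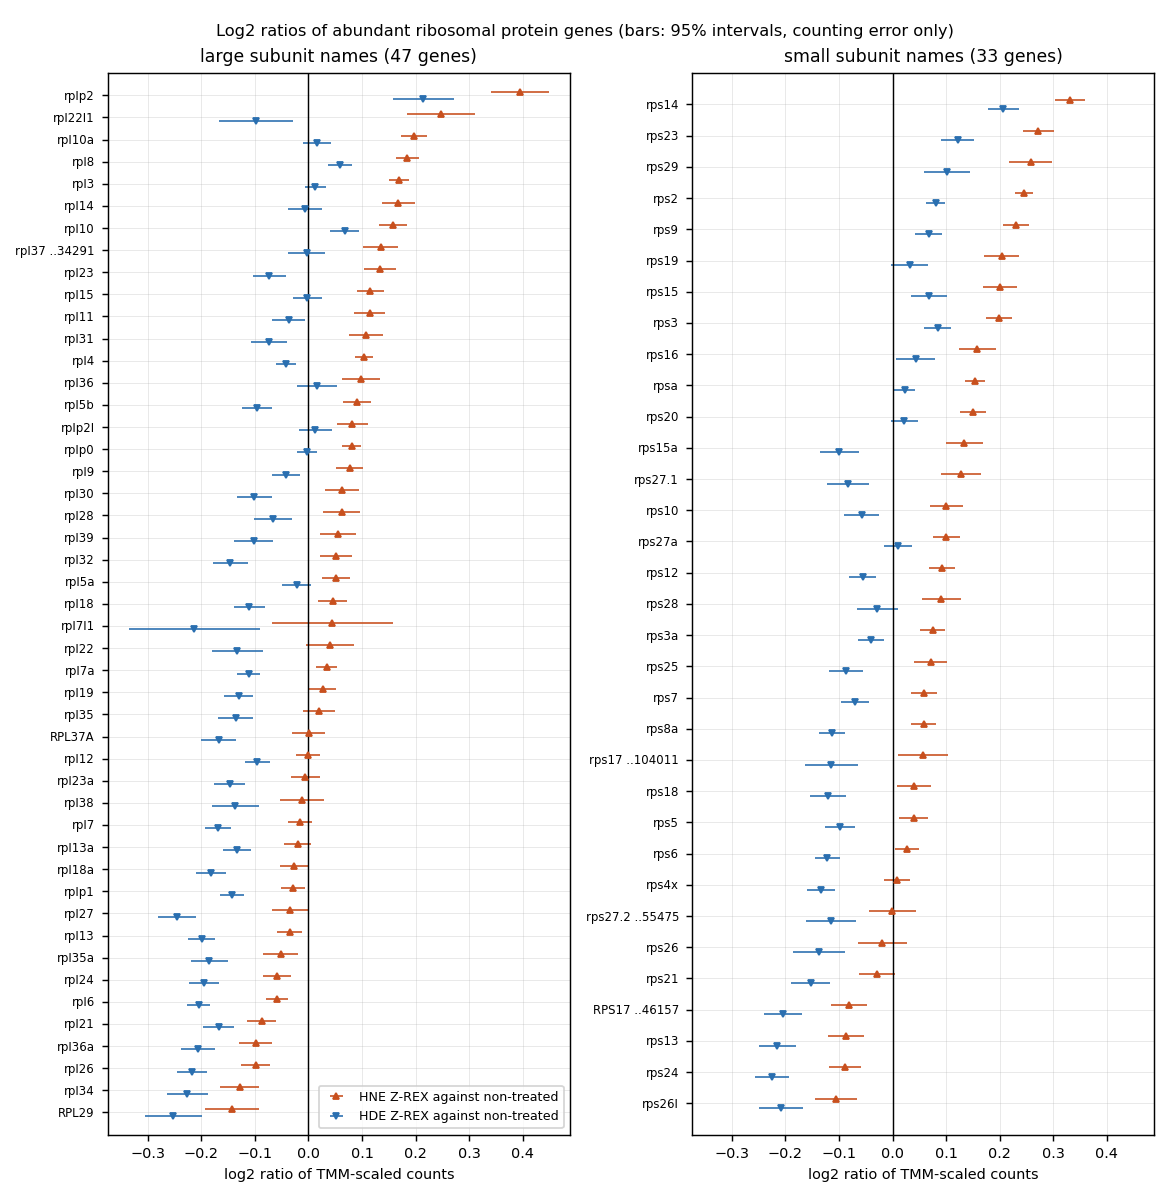
Log2 ratios of scaled counts for 47 large (left) and 33 of 34 small (right) subunit members that averaged 1000 counts or more, HNE against non-treated (triangles up) and HDE against non-treated (triangles down), ordered by the first, with exact 95% intervals for counting error only. For every gene the HNE point lies to the right of the HDE point, and both ratios share the non-treated library.

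The second comparison set the HDE library against the non-treated library. With TMM factors the family lay lower here, with a median log2 ratio of -0.10 over 85 genes (range -0.25 to 0.21 over the 81 abundant genes). The median was -0.01 for all genes tested and -0.06 for the 2779 other abundant genes. Summed, scaled counts of the members were 0.954 times those of the non-treated library (interval 0.952 to 0.956). Their share of all counts, which uses no TMM factors, was instead slightly higher in the HDE library, at 9.50% against 9.44%. By the adjusted p alone, 11 members were higher and 55 lower, where 9.10% of all tested genes were higher and 12.2% lower. This split rested on the scaling: with total counts in place of TMM factors it was 29 higher and 30 lower for the members and 2780 higher and 1318 lower for all genes, and the members' median was -0.02. Of the 2779 other abundant genes, 15.8% were higher and 38.0% lower with TMM factors.

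At 1.2-fold, 1 member was higher and 0 were lower in the HDE library, where 6.54% and 7.15% of all tested genes were. With edgeR's exact test and an assumed biological coefficient of variation of 0.1, no member passed the adjusted p and 1 had an unadjusted p under 0.05. At 1.5-fold 1 member was called, beside 4.23% of all tested genes. Among the lowest log2 ratios of abundant genes were those of RPL29 at -0.25 (-0.31 to -0.20), *rpl27* at -0.25 (-0.28 to -0.21) and *rpl34* at -0.23 (-0.26 to -0.19). Values of *rpl27* were 14539 scaled counts in the non-treated, 14195 in the HNE and 12261 in the HDE library. The highest were *rplp2* at 0.21 (0.16 to 0.27) and *rps14* at 0.21 (0.18 to 0.24), followed by *rps23* at 0.12 (0.09 to 0.15). These 3 genes also led the HNE comparison, and both comparisons share the non-treated library.

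The third comparison, between both electrophiles, used no counts of the non-treated library in its ratios. That library still entered the TMM factors and the count filters, which were taken over all libraries. All 81 abundant members were higher in the HNE than in the HDE library, with log2 ratios between 0.07 and 0.34 and a median of 0.14, and all 81 passed the adjusted p in the exact binomial test. No member passed as lower, where 10.0% of all tested genes were higher and 6.80% lower. With total counts the direction of all 81 stayed, at log2 ratios of 0.00 to 0.28, and 67 of them passed, while all genes turned from 1856 higher and 1263 lower to 1108 higher and 2126 lower. Among the 2779 other abundant genes, 32.3% were higher and 11.5% lower with TMM factors, and their median was 0.05. The members' median stood 0.09 above that of these genes, a distance that no scaling factor can change.

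The difference was small and nearly the same for each gene. At 1.2-fold, *rpl22l1* alone was called, where 5.35% of all tested genes were higher and 5.08% lower, and at 1.5-fold no member was, against 3.54%. The SD of the log2 ratios among the 81 genes was 0.04 between the HNE and HDE libraries, against 0.11 for HNE and 0.10 for HDE against non-treated, and 0.18 among the other abundant genes in the HNE to HDE ratio. The members thus kept closer proportions to each other between the 2 Z-REX libraries than either did with the non-treated library. With 1 library each, a difference between libraries and between treatments cannot be told apart.

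Paralogs stood at both ends of this narrow range, and *rps15a* and *rpl21*, which belong to no pair examined here, lay near them. Other paired genes lay nearer the middle, such as *rpl22* at 0.17, *rpl7* at 0.15 and *rps26* at 0.12. The gene *rpl22l1* had 3555 scaled counts in the non-treated, 4220 in the HNE and 3323 in the HDE library, a log2 ratio of HNE to HDE of 0.34 (0.28 to 0.41, exact binomial adjusted p = 2.04e-22). For *rpl7l1* the values were 1212, 1250 and 1046, with a log2 ratio of 0.26 (0.14 to 0.38), and for *rps15a* 12932, 14192 and 12073, with 0.23 (0.20 to 0.27). The smallest differences of abundant genes were those of *rplp2l* at 0.07 (0.04 to 0.10), *rpl5a* at 0.07 (0.05 to 0.10) and *rpl21* at 0.08 (0.05 to 0.11).

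The large and small subunit were then set against each other. Summed over members, the counts of the large subunit were 1.48 times those of the small subunit in the non-treated library (interval 1.48 to 1.49), 1.43 times in the HNE library (1.42 to 1.43) and 1.43 times in the HDE library (1.43 to 1.44). Against the non-treated library this balance was 0.960 times as high after HNE (0.956 to 0.964) and 0.963 times as high after HDE (0.959 to 0.968), whereas between the HNE and HDE libraries it was 0.996 (0.992 to 1.00). The scaling cancels in these ratios. The non-treated library thus stood apart from both others by about the same amount, and the interval of the ratio between the Z-REX libraries included 1. No library of light alone or precursor alone was among those sequenced. A shift common to both Z-REX libraries therefore cannot be told apart from their shared handling.

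This shift was spread over the subunits in unequal parts. Summed counts of small subunit genes were 1.08 times as high in the HNE as in the non-treated library and those of large subunit genes 1.03 times. In the HDE library the factors were 0.976 and 0.940, both with TMM factors. In medians the gap was narrower: large minus small was -0.03 on the log2 scale for HNE, -0.02 for HDE and 0.01 for HNE against HDE. Without *rps2*, the ratios of large to small were 1.61, 1.56 and 1.56 in the non-treated, HNE and HDE library, so the order did not rest on the most abundant gene. At the level of single genes the subunits overlapped almost fully, with log2 ratios of HNE to non-treated from -0.14 to 0.40 in the large and from -0.11 to 0.33 in the small subunit among abundant genes.

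**Figure D3:**
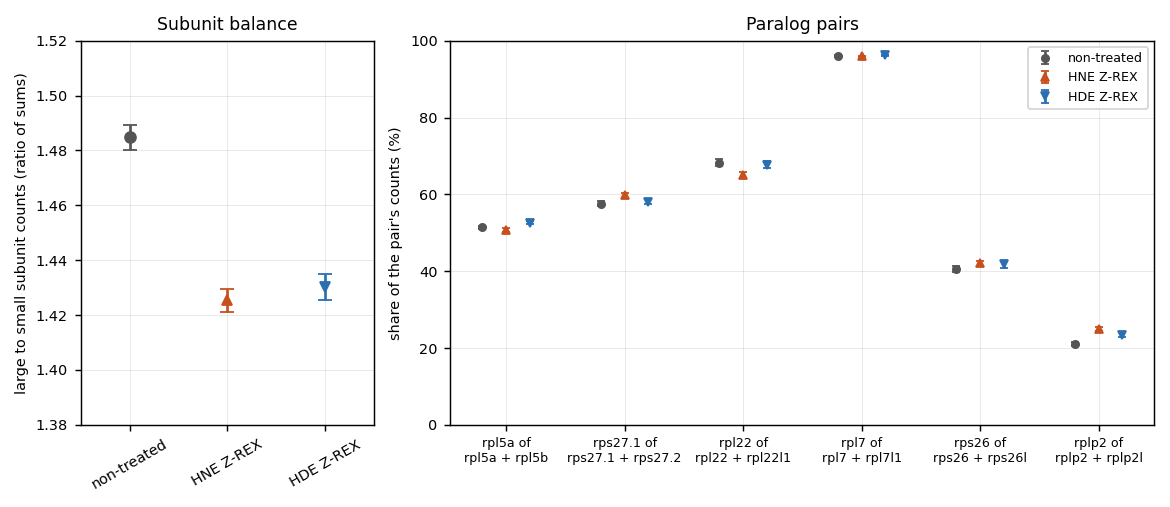
Left, ratio of summed large to summed small subunit counts in each library, on an axis that does not start at 0; right, share of a paralog pair's counts that fell on the first gene in the non-treated (circles), HNE (triangles up) and HDE (triangles down) library, both with 95% intervals for counting error only. The balance is 1.48 in the non-treated library and 1.43 in both others, and the share of *rplp2* is higher in both Z-REX libraries than in the non-treated library.

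The members were also grouped by place in the ribosome. Of the 3 large subunit proteins near the peptidyl transferase center, where the peptide bond is made, all 3 were higher in the HNE library: *rpl3* (43519, 48908 and 43899 scaled counts in the non-treated, HNE and HDE library), *rpl8* (30331, 34477 and 31596) and *rpl10* (22600, 25207 and 23680), with log2 ratios of 0.17, 0.18 and 0.16. The 2 genes at the mRNA entry, *rps2* and *rps3*, had log2 ratios of 0.25 and 0.20, and the 2 near the decoding site, *rps23* and *rps15*, 0.27 and 0.20. All of these passed the adjusted p for HNE, as did 56.5% of the family as higher. Against non-treated they were also above 0 in the HDE library with TMM factors. There the log2 ratios were 0.01 for *rpl3*, 0.06 for *rpl8*, 0.07 for *rpl10* and *rps15*, 0.08 for *rps2* and *rps3*, and 0.12 for *rps23*. The groups are small, they were chosen with earlier results known, and no test of the groups was made.

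The single gene of the L1 stalk, *rpl10a*, had 24235, 27783 and 24496 scaled counts and a log2 ratio of 0.20 (0.17 to 0.22) for HNE. The 3 genes of the 5S particle, *rpl5a*, *rpl5b* and *rpl11*, whose proteins bind and restrain Mdm2 when ribosome assembly fails, were all higher after HNE, at log2 ratios of 0.05, 0.09 and 0.11. In the HDE comparison with TMM factors only *rpl5b* passed, at -0.10, beside -0.02 for *rpl5a* and -0.04 for *rpl11*. Of 6 genes for proteins around the rim of the exit tunnel, *rpl31* was higher and *rpl26* lower after HNE (16.7% each). All 6 were lower after HDE with TMM factors, with a median log2 ratio of -0.13 and *rpl31* highest at -0.07. As lower passed 64.7% of the family and 12.2% of all tested genes. These HDE ratios depend on the scaling, since the median of the 81 abundant members went from -0.10 to -0.02 with total counts. At the mRNA exit, 4 of 6 genes were higher and 1 lower after HNE, from *rps14* at 0.33 to *rps26l* at -0.11. These were 66.7% and 16.7% of the group, beside 56.5% and 17.6% of the family. The gene of the S6 kinase substrate, *rps6*, had 30891, 31476 and 28391 scaled counts, with a log2 ratio of 0.03 (0.00 to 0.05, exact binomial adjusted p = 0.0918) for HNE and -0.12 (-0.15 to -0.10) for HDE. The *rps12* gene of the beak was higher after HNE at 0.09, and its ratio for HDE was -0.06 with TMM factors and 0.02 with total counts.

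Stalk genes did not move together in HNE against non-treated. The log2 ratio of HNE to non-treated was 0.40 for *rplp2*, 0.08 for *rplp2l* (17496, 18520 and 17652 scaled counts), 0.08 for *rplp0* (48356, 51128 and 48278), 0.00 for *rpl12* (29828, 29819 and 27922) and -0.03 for *rplp1* (33290, 32629 and 30150). Of the 5, 3 (60.0%) passed as higher and none as lower. In the whole family 56.5% passed as higher and 17.6% as lower, and of all tested genes 7.21% and 7.50%. Between the HNE and HDE libraries all 5 stalk genes were higher in HNE, at log2 ratios from 0.07 to 0.18, as were 95.3% of the family and 10.0% of all tested genes. Zebrafish genes whose human counterparts are mutated in Diamond-Blackfan anemia numbered 23, of which 22 were tested. Among them 13 (59.1%) were higher and 4 (18.2%) lower after HNE, close to the family's 56.5% and 17.6%. After HDE with TMM factors 1 (4.55%) was higher and 16 (72.7%) lower. In the family these shares were 12.9% and 64.7%, and among all tested genes 9.10% and 12.2%. All 22 passed as higher in HNE than in HDE, as did 95.3% of the family and 10.0% of all tested genes. Of the 2779 other abundant genes, 32.3% did. The medians of these 22 genes, 0.06, -0.10 and 0.15, lay close to those of the whole family.

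Several ribosomal proteins are encoded by gene pairs, and the share of each copy can be compared within a library without scaling. The gene *rplp2* held 21.1% of the counts of *rplp2* and *rplp2l* in the non-treated library (95% interval 20.6 to 21.6), 24.9% in the HNE library (24.4 to 25.5) and 23.5% in the HDE library (22.9 to 24.1). The copy *rpl22* held 68.3%, 65.1% and 67.8% of the counts of *rpl22* and *rpl22l1*, which put the HNE library lowest. For *rps27.1* against *rps27.2* (ENSDARG00000055475) the shares were 57.6%, 59.8% and 58.1%, with the HNE library highest. The gene *rpl5a* held 51.4%, 50.7% and 52.7% of its pair and *rps26* 40.6%, 42.0% and 41.8%. The gene *rpl7* carried at least 95.9% of the counts of *rpl7* and its relative *rpl7l1* in each library. For *rps8a* beside *rps8b* the share was at least 99.9%. How reads that match both copies were assigned is not stated, so these shares are uncertain to that extent.

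Ribosomal proteins whose names the rule does not catch gave like values. The gene *gnb2l1* (Rack1) had 34276, 37036 and 29545 counts in the non-treated, HNE and HDE library, and *faua*, a fusion with a ubiquitin-like protein, 13149, 15411 and 12454. Their log2 ratios were 0.12 and 0.24 for HNE against non-treated and 0.16 and 0.14 for HNE against HDE. The low copy *faub* had 121, 165 and 137 counts. The gene listed as C21H18orf32, named RPL17 in the name table, had 22146, 20784 and 17093 counts and a log2 ratio of -0.08 for HNE and -0.20 for HDE against non-treated. Apart from *faub*, these lay within the range of the abundant members.

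Other genes of the translation apparatus shared part of this pattern. Of 31 other TOP mRNAs and elongation factors, 10 (32.3%) were higher and 4 (12.9%) lower after HNE by the adjusted p. After HDE with TMM factors 2 (6.45%) were higher and 16 (51.6%) lower, and in HNE against HDE 17 (54.8%) were higher and 0 lower. Their medians were 0.04, -0.09 and 0.13. The most abundant of them, the elongation factor gene *eef1a1l1*, had 184971, 216652 and 180173 scaled counts. Of 86 ribosome biogenesis genes, 22 (25.6%) were higher and 1 (1.16%) lower after HNE. After HDE with TMM factors 4 (4.65%) were higher and 25 (29.1%) lower, and in HNE against HDE 37 (43.0%) were higher and 0 lower. The medians of this list were 0.08, -0.09 and 0.16. For example, the nucleolin gene *ncl* had 14386, 16056 and 14090 scaled counts and the fibrillarin gene *fbl* 3337, 3591 and 2936. Of all tested genes, 7.21% were higher and 7.50% lower after HNE, and 9.10% and 12.2% after HDE. In HNE against HDE, 10.0% of all tested genes were higher and 6.80% lower. Both groups contain abundant genes, to which the shares among the 2779 other abundant genes given above also apply. Many biogenesis genes averaged under 1000 counts, such as *dcaf13* with 738, 736 and 584 counts. For these genes the shares of the abundant genes are not a matched background.

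The ribosomal proteins of mitochondria, which are made in the cytosol for a separate ribosome, differed in the comparisons with the non-treated library. Of 75 such genes, 2 were higher and 14 lower after HNE and 0 higher and 36 lower after HDE with TMM factors, with median log2 ratios of -0.12 and -0.26. As shares of the list, 2.67% were higher and 18.7% lower after HNE and 48.0% lower after HDE, beside 7.21%, 7.50% and 12.2% of all tested genes. For example, *mrpl12* had 1014, 822 and 720 scaled counts. Between the HNE and HDE libraries their median was 0.14, with 9 higher (12.0%, near the 10.0% of all tested genes) and 0 lower. Among 27 tested genes of translation control (28 found), such as initiation factor kinases, the medians were 0.03, 0.01 and 0.01.

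**Figure D4:**
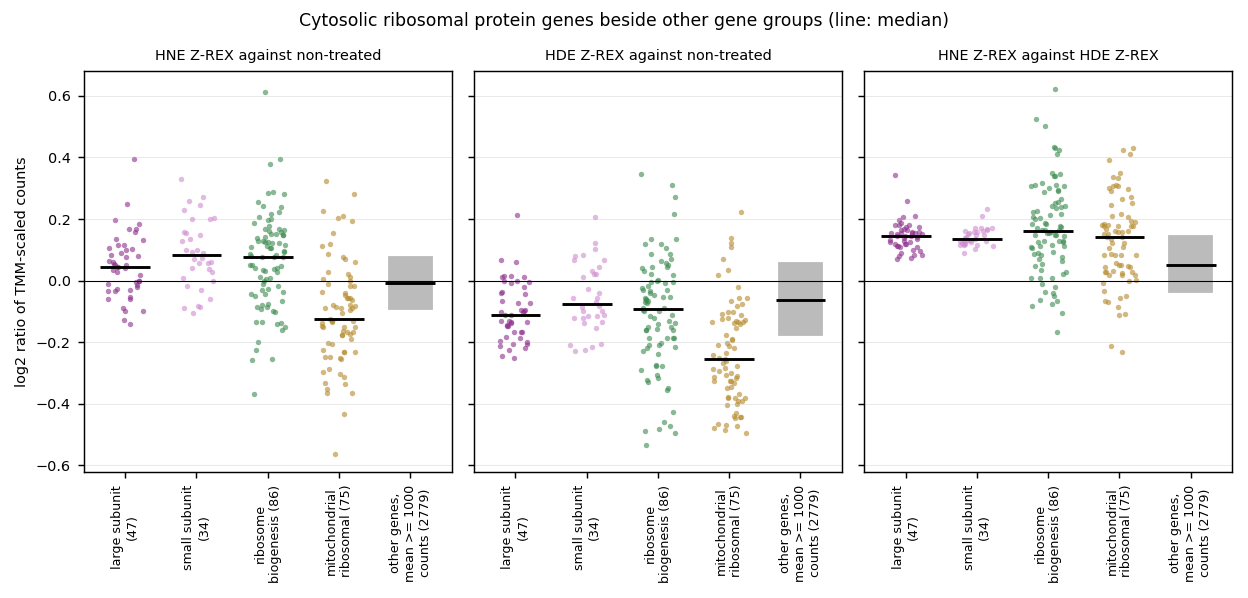
Log2 ratios of scaled counts in the 3 comparisons for abundant large and small subunit members, ribosome biogenesis genes and mitochondrial ribosomal protein genes (points: genes, line: median), beside the 2779 other genes that averaged 1000 counts or more (box: middle range between quartiles, line: median). In the HNE to HDE ratio the members form a narrow band with medians of 0.15 and 0.14. In both comparisons with the non-treated library the median of the mitochondrial genes lies below those of the cytosolic genes, while the single genes overlap.

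The deposited FPKM values gave nearly the same ratios as the counts. Over the 81 abundant members the median difference between both log2 ratios rounded to 0.00 for HNE and for HDE against non-treated, and 2 genes differed by more than 0.1 in each. The farthest was *rps28*, whose FPKM of 3167, 4210 and 4004 gave log2 ratios of 0.41 and 0.34, while its counts of 11926, 12588 and 10340 gave 0.09 and -0.03. The other was *rplp1*, whose FPKM gave log2 ratios of -0.15 and -0.25 against -0.03 and -0.14 by counts. For these genes the deposited tables thus gave different ratios to the non-treated library.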

How the data were processed

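RNA was isolated from whole embryos, polyadenylated RNA was selected and stranded libraries were sequenced. Per the methods and processing notes, the authors trimmed reads with cutadapt 1.8, mapped them with TopHat2 2.1 to GRCz10 and computed the deposited FPKM values with Cufflinks 2.2 (Cuffnorm), with Cuffdiff for their tests. The authors also deposited expected counts per gene, not scaled between libraries and fractional for 913 genes, 6 of them members. The counting tool, its use of strand and its treatment of reads shared by related genes are not given in the sources used here. Counts were rounded to whole numbers.

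Libraries were scaled with TMM (edgeR 4.0.16, R 4.3.3). A scaled count is a count divided by the effective library size and multiplied by the mean effective size. Each of the 18563 genes with 10 or more counts on average was compared between 2 libraries by a two-sided exact binomial test conditional on the gene's summed counts (scipy 1.17.1) with Benjamini-Hochberg adjustment over all of them, at 0.05 and at least 1.5-fold, 1.2-fold or any fold. Intervals are exact (Clopper-Pearson) or, for shares of a library, Wilson, at 95%. For the ratio of the large to small balance between 2 libraries, the interval is a normal approximation on the log scale. All intervals cover counting error only, since 1 library per condition holds no spread between replicates. They treat each count as independent, and PCR copies are not independent molecules, so they may be too narrow even for counting error. Library totals were 17996111 (non-treated), 17704410 (HNE) and 15084294 (HDE) counts. The binomial test was tried on simulated Poisson counts scaled by their totals. These counts hold counting error only, so the trial does not cover spread between replicates.

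Large and small subunit followed the names. Genes named are the 5 highest and 5 lowest log2 ratios of each comparison (50 counts or more in either library), the 5 highest and lowest FPKM in the non-treated library, members called at 1.5-fold, paralog pairs and examples of each role. Genes outside this rule (*rps6*, *rps28*, *ncl*, *fbl*, *mrpl12*, *eef1a1l1* and the entry named RPL17 in the name table) were chosen after their values were seen. Members and lists were chosen with earlier results of these data known. Of the 86 members, 85 were in the name table by identifier. The alternatives were scaling by DESeq2 1.42.0 or by total counts (all genes, or leaving out the 20 most abundant), TMM without the members, other filters, fold thresholds and pseudocounts, FPKM with a pseudocount of 0.1 or 1, members with whole counts, members without paralog-type names, and edgeR's exact test with an assumed coefficient of variation of 0.1 or 0.2. A minimum of 1000 counts and the subunit balance without *rps2* were chosen after seeing the data. Some items are not reported here. A planned look at the sequence around gene starts was not run. Figures were drawn with matplotlib 3.10.9.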

Additional observations from a re-analysis of the deposited data

How the results depend on the processing

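The medians of HNE against non-treated kept their direction and stayed close to their values under every alternative run. For HDE against non-treated, the members' median of -0.10 became -0.0203 with total counts and -0.0268 with total counts without the 20 most abundant genes. For HNE against HDE, the median of 0.14 became 0.0749 and 0.0812 under these settings. The log2 ratio of *rps12* for HDE against non-treated turned from -0.06 to 0.0213 and 0.0149. Single named genes were tested again only under the alternative scalings. Counted once per gene, comparison and scaling, 30 of their ratios lost their call and 7 gained one. Of the members called at 1.5-fold after HNE (1), 0 remained at a minimum of 1000 counts or with edgeR's exact test at a coefficient of variation of 0.2, and the count was 5 at 1.2-fold and 63 without a fold. After HDE (1) it was 0 at a minimum of 1000 counts, at 2-fold and with edgeR's exact test at 0.1 and at 0.2, and 66 without a fold. For HNE against HDE (0) it was 1 at 1.2-fold and 81 without a fold, and edgeR's exact test at 0.1 passed 0 members at the adjusted or the unadjusted p. Without the 20 most abundant genes that are no members, the members' shares of counts were 10.8%, 11.5% and 10.9% in the non-treated, HNE and HDE library. The cause of these changes was not tested. No paired analysis was possible because each condition had 1 library, which also leaves none to leave out. Depth limits the low entries: the interval of *rps8b* for HNE ran from -1.41 to 0.73.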
